A study of Mus musculus with 24 samples.

Results

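The genes described here are p53 and its regulators and known targets, 33 genes picked by name. The deposited table held a row for 32 of them. Of these, 30 reached 0 on the log2 CPM scale (log2 of normalised 3' tag counts, inferred from the values) in at least 4 libraries. They were tested among 13272 genes that passed the same filter, of 15390 rows in all. Gdf15 and Trp53inp1 had 0 libraries at or above that level, and Pmaip1 was not analysed here. MC38, a mouse colon carcinoma cell line, carried control gRNA 1, control gRNA 2, Ado gRNA 1 or Ado gRNA 2, and each of these 4 guide populations was left untreated or given TNF (tumour necrosis factor) for 1 h or 6 h. Ado encodes a thiol dioxygenase, and the labels call its guide populations Ado KO and the others control. Each combination of genotype and treatment is a group of 4 libraries, 2 per guide population, which gives 6 groups and 24 libraries. A library is named below by its guide number and its replicate number, so 2-1 is guide 2, replicate 1.

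The transcription factor p53, encoded by Trp53, accumulates after DNA damage and other stresses and switches on genes that halt the cell cycle, repair DNA or start cell death. Its own level is held down by Mdm2, a ubiquitin ligase that is itself a p53 target, together with Mdm4 and the phosphatase Ppm1d. Many of these genes also respond to other factors, among them NF-κB, the main transcription factor that TNF activates.

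Of the 30 tested members, 9 were higher and 3 lower after 6 h of TNF in control cells, where 7.74% of all genes tested were higher and 10.3% lower. In Ado KO cells 8 were higher and 1 lower, beside 4.42% and 2.02% of all genes. Btg2, Fas, Gadd45b, Cdkn1a, Mdm2, Plk2, Plk3 and Tnfrsf10b rose in both genotypes, by 0.50 to 2.80 on the log2 scale, and Phlda3 fell in both. Trp53 mRNA itself passed no test. No member passed the test between Ado KO and control cells at any time in the fit reported here.

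Promoter windows are shown first for 5 of the genes that rose in both genotypes, picked because their windows held a motif that was searched for. No match was found for Gadd45b, Plk3 or Tnfrsf10b, which also rose in both genotypes. For 8 members there was no window to search. Whether these genes are among them is not given here, so the lack of a match is no negative result. A link between motif and change was not tested. Each window runs from 250 bases before a RefSeq start site to 50 bases after it (GRCm38.p6), is printed 5′ to 3′ on the strand of the gene, and so covers the proximal promoter and the beginning of the transcript. Capitals mark the letters that matched. The Cdkn1a window (chr17:29090729-29091028, + strand) held 2 matches to the p53 half-site consensus 12 bases apart, at 73 and 51 bases before the start site. The Mdm2 window (chr10:117710709-117711008, − strand) held 1 such match at 186 bases before the start. Btg2 (chr1:134079106-134079405, − strand) and Plk2 (chr13:110394794-110395093, + strand) held the CRE letters TGACGTCA at 166 and 62 bases before the start. Fas (chr19:34290409-34290708, + strand) held the AP-1 letters TGANTCA at 211 bases before it.
Cdkn1a: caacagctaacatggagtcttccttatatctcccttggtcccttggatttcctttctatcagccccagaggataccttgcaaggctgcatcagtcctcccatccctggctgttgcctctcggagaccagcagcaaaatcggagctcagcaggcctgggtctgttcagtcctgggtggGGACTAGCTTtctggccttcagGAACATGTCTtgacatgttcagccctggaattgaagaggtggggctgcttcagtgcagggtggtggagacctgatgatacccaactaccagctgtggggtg
Mdm2: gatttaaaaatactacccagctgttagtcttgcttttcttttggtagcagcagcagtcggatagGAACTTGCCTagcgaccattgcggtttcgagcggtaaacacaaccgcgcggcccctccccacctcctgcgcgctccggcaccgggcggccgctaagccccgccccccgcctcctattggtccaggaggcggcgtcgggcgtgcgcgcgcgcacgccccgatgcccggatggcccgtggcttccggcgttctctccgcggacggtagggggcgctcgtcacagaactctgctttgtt
Btg2: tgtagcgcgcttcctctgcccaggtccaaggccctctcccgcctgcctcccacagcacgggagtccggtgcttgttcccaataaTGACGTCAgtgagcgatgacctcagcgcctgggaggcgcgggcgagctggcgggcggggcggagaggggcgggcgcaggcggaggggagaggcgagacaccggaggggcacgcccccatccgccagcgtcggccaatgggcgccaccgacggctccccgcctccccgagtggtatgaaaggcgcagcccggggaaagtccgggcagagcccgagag
Plk2: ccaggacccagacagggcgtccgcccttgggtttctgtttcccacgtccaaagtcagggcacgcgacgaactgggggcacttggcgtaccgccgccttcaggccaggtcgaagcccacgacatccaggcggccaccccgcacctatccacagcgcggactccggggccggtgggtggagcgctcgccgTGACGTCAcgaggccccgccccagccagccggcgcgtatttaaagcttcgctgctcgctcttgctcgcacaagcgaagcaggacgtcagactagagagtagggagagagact
Fas: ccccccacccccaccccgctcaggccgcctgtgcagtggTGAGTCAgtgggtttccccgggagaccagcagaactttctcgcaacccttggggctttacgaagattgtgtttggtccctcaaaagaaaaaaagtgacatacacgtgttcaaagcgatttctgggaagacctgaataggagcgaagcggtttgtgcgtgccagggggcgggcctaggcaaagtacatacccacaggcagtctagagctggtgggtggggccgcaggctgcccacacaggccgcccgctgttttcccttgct

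RefSeq windows were found for 25 members (35 windows) and not for the other 8, which are named only. Both strands were searched, and the motifs were counted separately, whether or not they overlapped. The p53 half-site consensus was in 14 of the 35 windows, or 40.0%, against 8.36% of all 32851 RefSeq windows of this length. By gene it was found for 13 members, namely Aen, Ccng1, Cdkn1a, Ei24, Gadd45a, Gtse1, Mdm2, Polk, Ppm1d, Rap2b, Rps27l, Sesn1 and Trp53. Of the 13, Ccng1, Cdkn1a and Mdm2 were called higher at 6 h in control cells and Ei24 lower. The others were not called against untreated cells. These genes were listed because they are known p53 targets, so the share describes the list and is no separate evidence about it. A kappaB consensus match was in 8.57% of member windows (Bbc3, Gtse1 and Trp53) and 8.46% of all windows. TGANTCA was in 5.71% of member windows (Fas and Mdm4) against 7.81%, and TGACGTCA in 8.57% (Btg2, Plk2 and Ppm1d) against 1.79%. By gene, kappaB matches were found for 12.0% of members and 12.2% of measured genes with a window. For TGANTCA these shares were 8.00% and 6.34%, and for TGACGTCA 12.0% and 3.66%. Each member share rests on the few genes named, and no difference was tested. A match is a string of letters and not a site of binding, and a window without one says nothing about the factor.

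Across the whole series, 44 genes (0.332%) were called higher after 1 h of TNF in control cells, and 1027 (7.74%) after 6 h. Called means a Benjamini-Hochberg adjusted p under 0.05 in limma over all 13272 genes, in a fit of the 6 groups that treats guide population as a random block. The labels do not say that the 2 replicates of a population were separate cultures, so a p-value here reflects only how far these libraries scatter, and that scatter may be technical. Each group of 4 also rests on 2 guide populations. The Ado transcript stood at 5.00 to 5.53 in every library and differed by 0.09 ± 0.11 (SE) between untreated genotypes (limma adjusted p = 0.889). Where the edited site lies relative to the 3' tags is not given, so these values do not test the knockout. As a check of the treatment labels, 6 of 9 measured NF-κB response genes rose at 1 h and 9 of 9 at 6 h in control cells. Epithelial markers were low: Krt8, Krt18 and Cdh1 never exceeded 1.03, and the other 5 on that list were not analysed here. Of 5 immune markers in the table, Ptprc (−0.06 to 3.75), Itgam (0.84 to 2.56) and Cd3d (−1.70 to 2.39) were low to moderate, while Cd3e and Lyz2 never exceeded 0.02 and 0.54 and stood at the lowest value in some libraries, and in bulk RNA fewer cells of a type and less RNA per cell cannot be told apart. Of 5 fibroblast and pericyte markers, 4 were tested. Pdgfrb fell at 6 h by 1.48 in control and by 1.54 in Ado KO cells, while Pdgfra (−0.51 and −0.32), Dcn (0.15 and 0.17) and Acta2 (0.65 and −0.32) were not called. The part of these markers in the results was not tested. Small structural RNAs took 0.249% to 0.289% of the signal in untreated control libraries and 2.04% to 3.08% at 6 h, against 0.271% to 0.373% and 1.34% to 1.58% in Ado KO cells. With protein-coding genes alone normalised again, the number of members called at 6 h was still 12 in control and 9 in Ado KO cells. The labels do not say how long untreated cells were cultured or when they were collected. Whether time in culture differed along with TNF is therefore unknown, and the 2 cannot be told apart here.

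At 1 h, 2 of 30 members were called higher in control cells (Btg2 and Gadd45b), where 0.332% of all genes were, and 3 in Ado KO cells (Btg2, Gadd45b and Cdkn1a), where 0.241% were. No member was called lower in limma at 1 h, beside 0.0603% of all genes in control and 0.0151% in Ado KO cells. At an unadjusted p under 0.05, 8 members were higher and 2 lower in control cells, beside 7.78% and 6.36% of all genes. The Ado KO counts were 8 higher and 0 lower, beside 3.77% and 3.49%. At 6 h the share of members called higher was above that of all genes in both genotypes, and the share called lower in control cells, 3 of 30, was close to that of all genes. Over the 30 members the median log2 change at 6 h was 0.04 in control and 0.13 in Ado KO cells, beside −0.09 and −0.05 over all genes tested. Most members passed no test, and the larger changes sat in a few genes. The comparisons at 1 h and 6 h in one genotype share their untreated libraries.

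**Figure D1:**
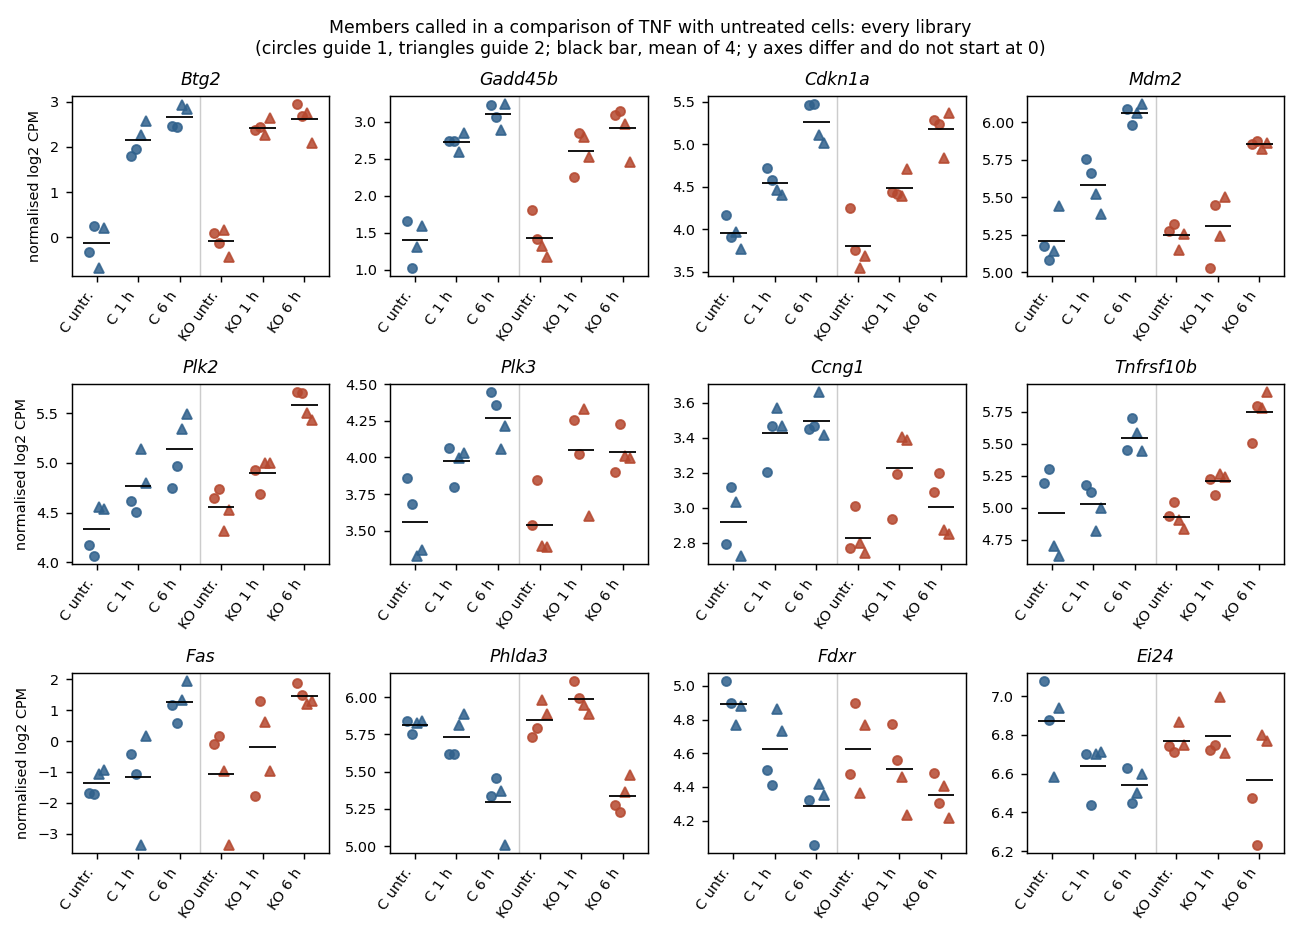
Level of the 12 members called in at least 1 comparison of TNF with untreated cells, as log2 CPM (y axis) in each library (points) of the 6 groups (C, control; KO, Ado KO; untr., untreated). Circles are guide 1, triangles guide 2 and bars group means. Cdkn1a libraries climb from untreated to 1 h to 6 h in both genotypes without overlap, while all Phlda3 libraries at 6 h lie below all others.

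The regulators of p53 came apart. Trp53 mRNA stood between 4.18 and 4.95 in the 24 libraries, and its change at 6 h was −0.11 ± 0.13 in control and −0.18 ± 0.13 in Ado KO cells (limma adjusted p = 0.61 and 0.534). Mdm2 in control cells was 5.17, 5.08, 5.14 and 5.44 untreated (libraries 1-1, 1-2, 2-1 and 2-2 in that order here and below), 5.75, 5.66, 5.52 and 5.39 at 1 h, and 6.09, 5.98, 6.06 and 6.12 at 6 h. Ado KO libraries had Mdm2 at 5.27, 5.32, 5.14 and 5.25 untreated, 5.03, 5.45, 5.24 and 5.50 at 1 h, and 5.85, 5.87, 5.82 and 5.86 at 6 h. Every 6 h library lay above every untreated and 1 h library of its genotype, while 1 h and untreated libraries overlapped. Mdm2 rose by 0.86 ± 0.10 in control cells (limma adjusted p = 9.99e-08) and by 0.61 ± 0.10 in Ado KO cells (limma adjusted p = 6.44e-05). Its 1 h change in control cells, 0.37 ± 0.10, missed the threshold in limma (adjusted p = 0.0946). The threshold was passed when control untreated 2-2 (0.46, limma adjusted p = 0.0457) or control TNF 1 h 2-2 (0.44, limma adjusted p = 0.0498) was left out. It was also passed with guide populations as fixed terms (limma adjusted p = 0.0449) and without control guide 2 (limma adjusted p = 0.0318). By population the 1 h change in Mdm2 was 0.58 in control guide 1 and 0.17 in control guide 2. Mdm4, a relative of Mdm2 that binds and inhibits p53, ranged from 2.70 to 3.96 and Ppm1d, a phosphatase that damps the p53 response, from 3.36 to 4.17. Neither was called in any comparison, with 6 h changes in control cells of 0.14 ± 0.20 and −0.36 ± 0.16.

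Among 9 genes of cell-cycle arrest, 6 were called higher at 6 h in control cells with 5 in Ado KO cells, beside 7.74% and 4.42% of all genes, and 0 were called lower in limma. Btg2, an antiproliferative protein that recruits the mRNA deadenylation machinery, had the largest fitted change of the 30 at 6 h in both genotypes. In control cells Btg2 was −0.33, 0.24, −0.67 and 0.21 untreated, 1.80, 1.95, 2.26 and 2.58 at 1 h, and 2.46, 2.44, 2.93 and 2.83 at 6 h. Ado KO cells had Btg2 at 0.10, −0.13, 0.16 and −0.42 untreated, 2.37, 2.45, 2.26 and 2.63 at 1 h, and 2.95, 2.67, 2.75 and 2.09 at 6 h. All treated libraries lay above all untreated ones, and the times of treatment overlapped. The rise at 1 h was 2.28 ± 0.26 in control and 2.50 ± 0.26 in Ado KO cells (limma adjusted p = 9.17e-07 and 1.27e-07). At 6 h it was 2.80 ± 0.26 and 2.69 ± 0.26 (limma adjusted p = 8.6e-10 and 3.63e-09). In CPM at the mean log2 level, control cells went from 0.910 to 4.42 and 6.34. Between 1 h and 6 h the change in Btg2, 0.52 ± 0.26 in control cells, was not called (limma adjusted p = 0.264).

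Gadd45b, a stress sensor and also a known NF-κB target, followed the same course. In control cells it was 1.65, 1.03, 1.31 and 1.59 untreated, 2.74, 2.73, 2.59 and 2.84 at 1 h, and 3.22, 3.06, 2.89 and 3.24 at 6 h. The Gadd45b values of Ado KO cells were 1.81, 1.42, 1.31 and 1.18 untreated, 2.25, 2.84, 2.80 and 2.52 at 1 h, and 3.09, 3.14, 2.96 and 2.46 at 6 h. Untreated libraries lay below all treated ones in both genotypes, and 1 h and 6 h libraries overlapped only in Ado KO cells. Its rise was 1.33 ± 0.21 at 1 h and 1.71 ± 0.21 at 6 h in control cells, and 1.17 ± 0.21 and 1.49 ± 0.21 in Ado KO cells (limma adjusted p at most 0.00234). The related Gadd45a was lower in level and more scattered, from −0.57 to 1.89, and its 6 h changes of 1.04 ± 0.44 and 0.45 ± 0.44 were not called (limma adjusted p = 0.0984 and 0.665).

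Cdkn1a encodes p21, the cyclin-dependent kinase inhibitor through which p53 arrests the cell cycle. The Cdkn1a window printed above held a pair of half-site matches. Only letters that fit the consensus exactly were marked, and whether the pair forms a site was not tested. In control cells Cdkn1a mRNA was 4.17, 3.91, 3.96 and 3.77 untreated, 4.72, 4.58, 4.47 and 4.40 at 1 h, and 5.46, 5.48, 5.11 and 5.02 at 6 h. For Ado KO cells the Cdkn1a values were 4.25, 3.75, 3.55 and 3.68 untreated, 4.44, 4.42, 4.39 and 4.71 at 1 h, and 5.29, 5.24, 4.84 and 5.37 at 6 h. The ranges at untreated, 1 h and 6 h did not overlap in either genotype. At 6 h the rise was 1.31 ± 0.14 in control cells, from 15.5 to 38.5 CPM, and 1.38 ± 0.14 in Ado KO cells (limma adjusted p = 1.46e-08 and 8.85e-09). At 1 h it was 0.59 ± 0.14 in control cells (limma adjusted p = 0.0501, just over the threshold) and 0.68 ± 0.14 in Ado KO cells (limma adjusted p = 0.0175). The Ado KO call at 1 h was lost without untreated library 1-2 (0.65, limma adjusted p = 0.093), 2-1 (0.59, limma adjusted p = 0.0881) or 2-2 (0.64, limma adjusted p = 0.0809), or 1 h library 2-2 (0.60, limma adjusted p = 0.0821). From 1 h to 6 h Cdkn1a rose again, by 0.72 ± 0.14 in control and 0.70 ± 0.14 in Ado KO cells (limma adjusted p = 0.000509 and 0.00109).

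Plk2 and Plk3, polo-like kinases that respond to stress, both rose at 6 h. Plk2 in control cells was 4.17, 4.06, 4.55 and 4.53 untreated, 4.62, 4.50, 5.14 and 4.79 at 1 h, and 4.74, 4.97, 5.34 and 5.50 at 6 h. Ado KO cells had Plk2 at 4.65, 4.73, 4.32 and 4.53 untreated, 4.92, 4.68, 5.00 and 5.00 at 1 h, and 5.71, 5.70, 5.50 and 5.43 at 6 h. Its 6 h libraries lay above its untreated ones in both genotypes, by 0.81 ± 0.14 and 1.03 ± 0.14 (limma adjusted p = 0.0001 and 2.78e-06). Plk3 in control cells was 3.86, 3.68, 3.33 and 3.36 untreated, 4.06, 3.80, 3.99 and 4.03 at 1 h, and 4.45, 4.36, 4.06 and 4.21 at 6 h. Ado KO cells had Plk3 at 3.54, 3.84, 3.39 and 3.38 untreated, 4.26, 4.02, 4.33 and 3.60 at 1 h, and 3.90, 4.23, 4.01 and 4.00 at 6 h. Here too the 6 h and untreated libraries did not overlap, though in Ado KO cells the gap between them was small. Plk3 rose by 0.71 ± 0.15 in control and 0.50 ± 0.15 in Ado KO cells (limma adjusted p = 0.00125 and 0.0459). That Ado KO call was lost on leaving out untreated library 1-1, 2-1 or 2-2 or 6 h library 1-2, 2-1 or 2-2 (changes of 0.44 to 0.50, limma adjusted p = 0.0874 to 0.152).

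Ccng1, cyclin G1, which works with the phosphatase PP2A in feedback on Mdm2, was called in control cells alone. It was 2.80, 3.12, 3.04 and 2.73 untreated, 3.20, 3.47, 3.57 and 3.47 at 1 h, and 3.45, 3.47, 3.66 and 3.41 at 6 h in control cells. Ado KO libraries gave Ccng1 at 2.77, 3.01, 2.80 and 2.74 untreated, 2.93, 3.19, 3.40 and 3.39 at 1 h, and 3.09, 3.20, 2.87 and 2.85 at 6 h. Treated and untreated control libraries did not overlap, and those of Ado KO cells did. The 6 h change was 0.58 ± 0.15 in control cells (limma adjusted p = 0.00906) and 0.17 ± 0.15 in Ado KO cells (limma adjusted p = 0.631). The difference between these responses, −0.41 ± 0.22, was not called (limma adjusted p = 0.767). Ccng2, the related cyclin G2, and Gtse1, which shuttles p53 out of the nucleus, ranged from 1.03 to 2.93 and from 3.08 to 4.90 and were called in no comparison.

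Among 10 genes of the cell-death arm, 2 were called higher and 3 lower at 6 h in control cells, where 7.74% and 10.3% of all genes were. The Ado KO counts were 2 higher and 1 lower, beside 4.42% and 2.02%. The genes that rose were both death receptors. Tnfrsf10b, the mouse receptor for TRAIL, was 5.19, 5.31, 4.71 and 4.62 untreated, 5.18, 5.13, 4.82 and 5.00 at 1 h, and 5.45, 5.70, 5.58 and 5.44 at 6 h in control cells. The Tnfrsf10b values of Ado KO cells were 4.93, 5.04, 4.90 and 4.83 untreated, 5.22, 5.10, 5.27 and 5.24 at 1 h, and 5.51, 5.79, 5.78 and 5.90 at 6 h. All 6 h libraries lay above the other libraries of their genotype. Its rise at 6 h was 0.59 ± 0.12 in control and 0.82 ± 0.12 in Ado KO cells (limma adjusted p = 0.00063 and 7.86e-06).

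Fas, the receptor for Fas ligand, was near the lower limit of the table in cells without TNF. In control cells it was −1.67, −1.70, −1.07 and −0.95 untreated, −0.42, −1.07, −3.35 and 0.15 at 1 h, and 1.18, 0.59, 1.31 and 1.95 at 6 h. The Fas values of Ado KO cells were −0.09, 0.15, −0.97 and −3.35 untreated, −1.76, 1.31, 0.61 and −0.98 at 1 h, and 1.87, 1.48, 1.20 and 1.30 at 6 h. The 6 h libraries lay above the untreated ones in both genotypes, and above the 1 h libraries in control cells. Fas stood at 0 or more in 12 libraries, 8 of them at 6 h and 4 at other times. The lowest value of the table, −3.35, stands for 0 tags if 0.5 was added to each count. The fitted rise was 2.60 ± 0.70 in control and 2.52 ± 0.70 in Ado KO cells (limma adjusted p = 0.00926 and 0.0216), and its size depends on that lowest value. The Ado KO call was lost without untreated library 2-2 (1.77, limma adjusted p = 0.152) or 6 h library 1-1 (2.42, limma adjusted p = 0.066).

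Phlda3, a pleckstrin-homology protein that restrains the kinase Akt, fell at 6 h in both genotypes. In control cells it was 5.84, 5.75, 5.82 and 5.84 untreated, 5.62, 5.62, 5.81 and 5.89 at 1 h, and 5.34, 5.46, 5.37 and 5.01 at 6 h. Ado KO cells had it at 5.73, 5.79, 5.98 and 5.89 untreated, 6.11, 6.00, 5.95 and 5.89 at 1 h, and 5.28, 5.23, 5.36 and 5.48 at 6 h. All 8 libraries at 6 h lay below the other 16. It fell by 0.52 ± 0.10 in control and by 0.51 ± 0.10 in Ado KO cells (limma adjusted p = 0.000172 and 0.000336). Between 1 h and 6 h it fell by 0.44 ± 0.10 in control and by 0.65 ± 0.10 in Ado KO cells (limma adjusted p = 0.00175 and 1.11e-05).

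Fdxr and Ei24 were called lower in control cells alone. Fdxr, the mitochondrial ferredoxin reductase, was 5.03, 4.90, 4.76 and 4.88 untreated, 4.50, 4.41, 4.86 and 4.73 at 1 h, and 4.32, 4.06, 4.42 and 4.35 at 6 h in control cells. Fdxr in Ado KO cells was 4.47, 4.90, 4.37 and 4.77 untreated, 4.77, 4.56, 4.46 and 4.23 at 1 h, and 4.48, 4.30, 4.41 and 4.22 at 6 h. Its 6 h and untreated libraries were apart in control cells and overlapped in Ado KO cells. Fdxr changed by −0.61 ± 0.13 in control and −0.27 ± 0.13 in Ado KO cells (limma adjusted p = 0.00119 and 0.263), and the difference of 0.33 ± 0.18 was not called (limma adjusted p = 0.785). Ei24, an endoplasmic reticulum protein, was 7.08, 6.88, 6.58 and 6.94 untreated, 6.70, 6.44, 6.70 and 6.71 at 1 h, and 6.63, 6.45, 6.50 and 6.60 at 6 h in control cells. Ado KO cells had it at 6.74, 6.71, 6.87 and 6.75 untreated, 6.72, 6.75, 7.00 and 6.71 at 1 h, and 6.47, 6.23, 6.80 and 6.77 at 6 h. The libraries overlapped in both genotypes. In control cells untreated library 2-1 lay among those at 6 h, and in Ado KO cells 6 h libraries 2-1 and 2-2 lay among the untreated ones. The Ei24 change was −0.33 ± 0.10 in control and −0.20 ± 0.10 in Ado KO cells (limma adjusted p = 0.0271 and 0.318). The Ei24 call was lost on leaving out control untreated library 1-1, 1-2 or 2-2 or 6 h library 1-2 or 2-1 (changes of −0.32 to −0.26, limma adjusted p = 0.0573 to 0.124).

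**Figure D2:**
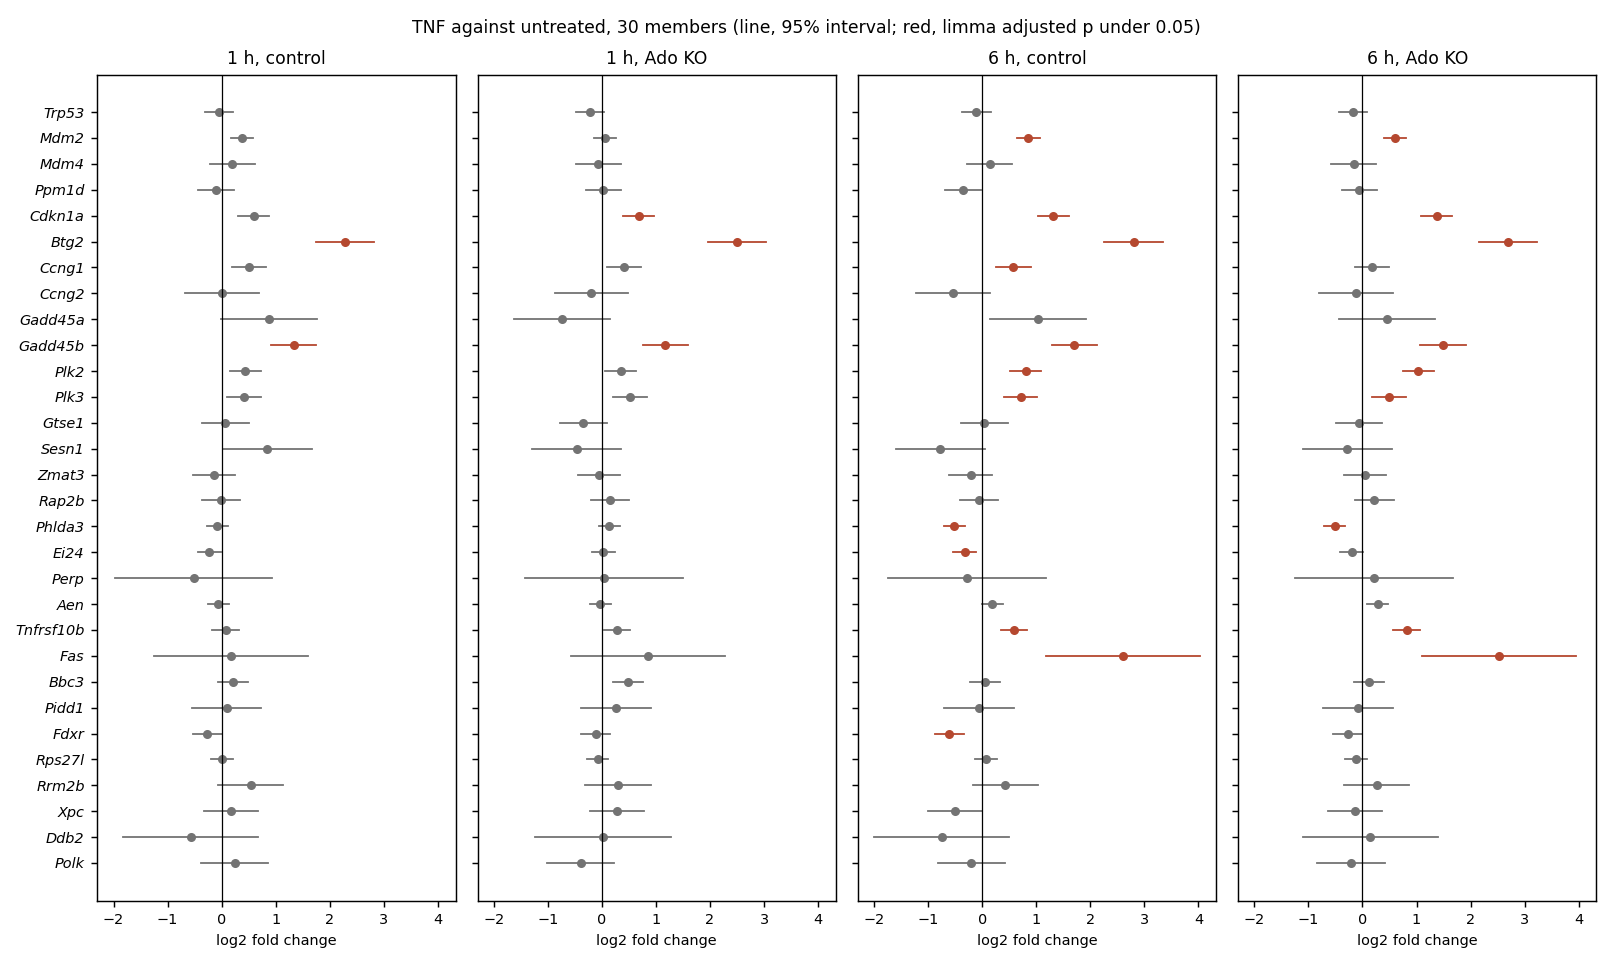
Log2 change of the 30 tested members after TNF against untreated cells (x axis, points, red where called, with 95% intervals as lines), by time and genotype, with members in rows ordered by role. At 6 h the points of Btg2, Fas, Gadd45b and Cdkn1a lie between 1.31 and 2.80 in both genotypes. Those of the other members lie between −0.78 (Sesn1) and 1.04 (Gadd45a), both in control cells.

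The remaining death-arm members were not called against untreated cells. Bbc3, which encodes the BH3-only protein PUMA, ranged from 4.06 to 4.91, and its changes at 6 h were 0.05 ± 0.14 and 0.12 ± 0.14. At 1 h in Ado KO cells Bbc3 changed by 0.49 ± 0.14, which did not pass over all genes (limma adjusted p = 0.236). Aen, an apoptosis-enhancing nuclease, ranged from 5.13 to 5.86 and changed by 0.18 ± 0.09 and 0.28 ± 0.09 at 6 h. Perp, a membrane protein of desmosomes (−3.35 to 1.07), Pidd1, the scaffold of the PIDDosome (−0.01 to 1.56), and Rps27l, a ribosomal protein paralogue (6.19 to 6.79), gave no call in any comparison. The most even of these was Rps27l, with an SD of 0.02 to 0.22 within groups, whereas the SD of Perp was 0.61 to 1.71.

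All 3 tested genes of the stress and metabolic arm and all 4 of DNA repair gave 0 calls against untreated cells in limma. At 6 h, 7.74% of all genes were called higher and 10.3% lower in control cells, with 4.42% and 2.02% in Ado KO cells. In so few genes 0 calls therefore say little. At an unadjusted p under 0.05, 1 stress gene was higher at 1 h in control cells (Sesn1), beside 7.78% of all genes. By the same threshold 1 repair gene was lower at 6 h in control cells (Xpc), beside 19.4%. The Ado KO count was 0, beside 8.22% higher and 9.62% lower at 6 h. Sesn1, a sestrin that restrains mTORC1, ranged from −0.99 to 2.50. Zmat3, an RNA-binding protein, ranged from 3.06 to 4.03, and Rap2b, a small GTPase, from 3.01 to 4.04. Of the repair genes, Rrm2b, a ribonucleotide reductase subunit, ranged from 1.06 to 2.76, Xpc, a sensor of DNA damage, from 1.31 to 2.74, and Polk, a translesion polymerase, from 0.93 to 2.80. Ddb2, another damage sensor, ranged from −1.76 to 1.18. It was the member nearest the filter from inside, with 4 libraries at 0 or more, followed by Perp with 10 and Fas with 12. Below the filter, with 0 libraries at 0 or more, were Gdf15, a secreted stress cytokine (−3.35 to −0.57), and Trp53inp1, an autophagy and death adaptor (−3.35 to −0.09). A level of 0 corresponds to about 5.10 tags if the library depth was near 5100000 tags, so changes in Ddb2, Perp, Gdf15 or Trp53inp1 were not detectable at this depth unless large.

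Comparing 6 h with 1 h directly, 4 members were called higher and 2 lower in control cells, against 4.82% and 2.86% of all genes, and 5 higher and 1 lower in Ado KO cells, against 4.05% and 3.72%. These comparisons share their libraries with those above. Mdm2 (0.48 ± 0.10 and 0.55 ± 0.10), Cdkn1a and Tnfrsf10b (0.51 ± 0.12 and 0.54 ± 0.12) rose from 1 h to 6 h in both genotypes. Cdkn1a had already been called at 1 h in Ado KO cells. Btg2 and Gadd45b, called at 1 h in both genotypes, were called between 1 h and 6 h in neither. In control cells Fas rose by 2.43 ± 0.70 and Sesn1 fell by 1.62 ± 0.40 (limma adjusted p = 0.0244 and 0.00739). Sesn1 stood at 2.07, 1.80, 2.50 and 1.39 at 1 h and at −0.99, 0.59, 1.19 and 0.46 at 6 h, with no overlap. Without 6 h library 1-1 the Sesn1 call was lost (−1.20, limma adjusted p = 0.0615). The Fas call was lost without 1 h library 2-1 or 6 h library 1-1, 2-1 or 2-2 (changes of 1.68 to 2.45, limma adjusted p = 0.0527 to 0.143). In Ado KO cells Plk2 rose by 0.69 ± 0.14 and Aen by 0.32 ± 0.09 (limma adjusted p = 0.00147 and 0.0334). The Aen call was lost without 1 h library 1-1 or 2-1 or any 1 of the 6 h libraries (changes of 0.25 to 0.33, limma adjusted p = 0.052 to 0.157).

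The genotype comparison gave no call among the 30 members in limma, with 0 calls in untreated cells, 0 at 1 h and 0 at 6 h. Over all genes 0.249%, 1.06% and 1.02% were called at these times. With guide populations as fixed terms Plk2 was called higher in Ado KO cells at 6 h (0.45, limma adjusted p = 0.0142). Without control guide 2, which leaves 2 control libraries a group, Plk2 was called at 6 h (0.73, limma adjusted p = 0.00317). At 1 h the same omission gave calls in Mdm2 (−0.40), Gadd45a (−1.89) and Phlda3 (0.37), with limma adjusted p of 0.0346, 0.0199 and 0.0346. Over all 13272 genes this omission gave 956 calls at 1 h and 322 at 6 h, so such calls are not particular to the members. At an unadjusted p under 0.05 there were 0 members in untreated cells, 7 at 1 h (3 higher and 4 lower in Ado KO) and 3 at 6 h (2 higher and 1 lower). The shares of all genes at that threshold were 8.79%, 15.8% and 11.4%, so 3 of 30 at 6 h is near the background. The smallest adjusted p over the members was 0.601 untreated, 0.119 at 1 h and 0.167 at 6 h. Differences ran from −0.43 to 0.29 in untreated cells, from −1.41 to 0.97 at 1 h and from −0.49 to 0.72 at 6 h. A missed threshold does not show that the levels were equal, so the 95% intervals of the difference at 6 h are given for the genes that rose most. They were −0.61 to 0.52 for Btg2, −0.38 to 0.22 for Cdkn1a, −0.63 to 0.26 for Gadd45b and −1.29 to 1.70 for Fas.

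The 1 h difference nearest the threshold was in Gadd45a. It was 1.80, 1.88, 1.60 and 0.15 in control and 0.03, −0.57, −0.32 and 0.66 in Ado KO libraries, so the genotypes overlapped through control library 2-2. The difference was −1.41 ± 0.46 (limma adjusted p = 0.119). Without control library 2-2 the Gadd45a difference was −1.80 and was called (limma adjusted p = 0.0408), and it is the member difference at 1 h that changed its call with a single library. At 6 h the smallest unadjusted p-values were those of Ccng1 (−0.49 ± 0.16), Plk2 (0.45 ± 0.15) and Aen (0.28 ± 0.10), with limma adjusted p of 0.167, 0.172 and 0.208. The response to TNF was then compared between genotypes. At 1 h, 0 members were called in limma, where 0% of all genes were, and 3 had an unadjusted p under 0.05, all with a lower response in Ado KO cells (Gadd45a, Sesn1 and Mdm2). Over all genes 9.83% had such a p, which is close to 3 of 30. At 6 h, 0 members were called in limma and 0 had an unadjusted p under 0.05, while 0.347% of all genes were called.

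**Figure D3:**
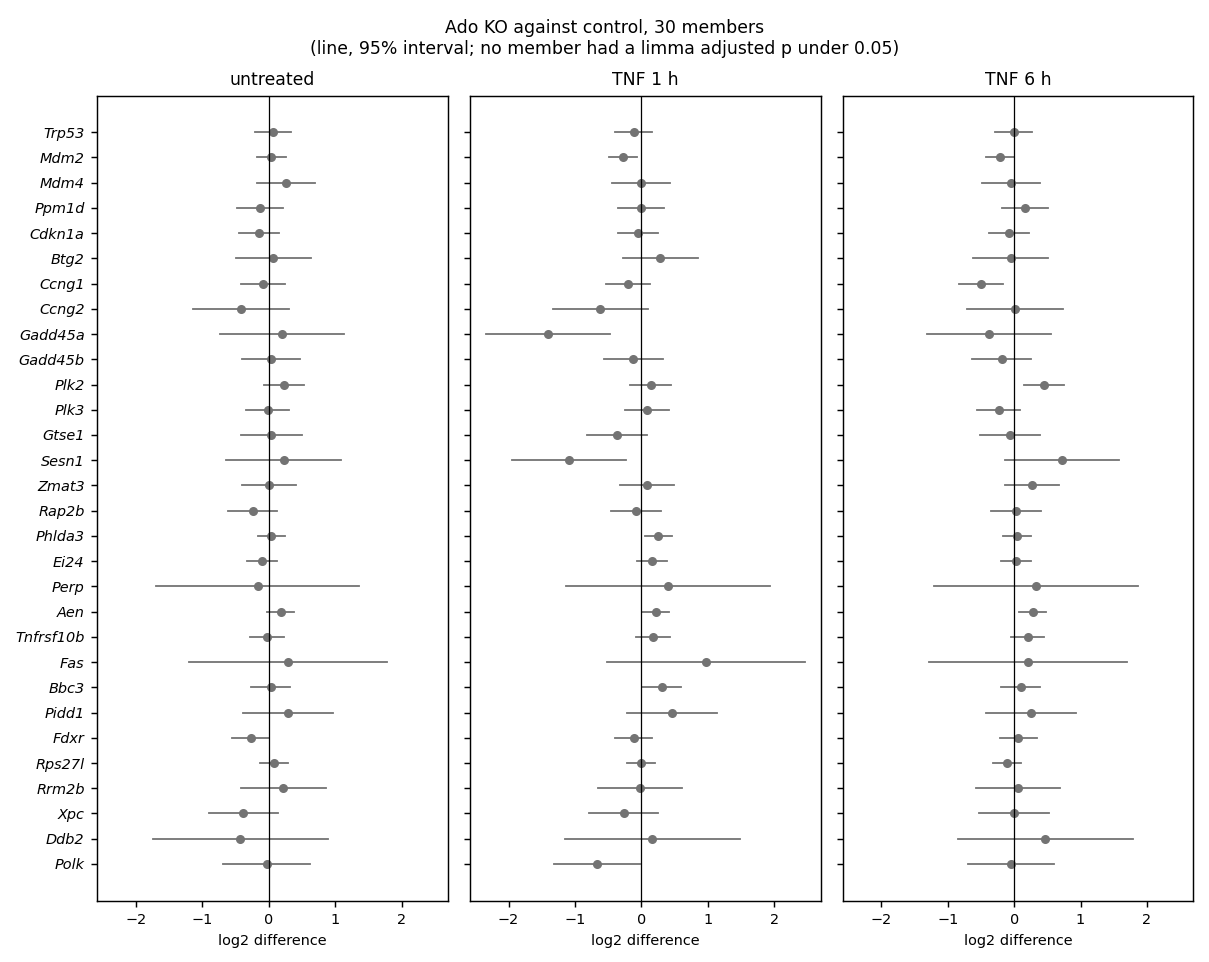
Log2 difference between Ado KO and control cells (x axis, points, with 95% intervals as lines) for the 30 tested members, in untreated cells, at 1 h and at 6 h. Differences run from −0.43 to 0.29 untreated and from −1.41 to 0.97 at 1 h, and no member was called.

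Guide populations of one genotype also differed. Between control guide 2 and control guide 1, averaged over the 3 treatments, 1 member was called higher and 1 lower in limma, against 4.61% of all genes in either direction. Plk2 was 0.47 ± 0.08 higher with guide 2 (limma adjusted p = 0.000962), and each guide 2 library lay above both guide 1 libraries of its treatment. The Tnfrsf10b difference was −0.30 ± 0.08 (limma adjusted p = 0.0228). This call was lost without control untreated library 1-2 or 2-2, 1 h library 2-1, or 6 h library 1-2 or 2-2 (differences of −0.28 to −0.26, limma adjusted p = 0.0623 to 0.0823). Between the Ado guides 0 members were called in limma, against 0.158% of all genes. At an unadjusted p under 0.05, 1 member was higher and 2 lower, beside 8.79% of all genes in either direction, which is near the member share. Within each guide population Btg2 changed at 6 h by 2.49 (control guide 1), 3.11 (control guide 2), 2.82 (Ado guide 1) and 2.55 (Ado guide 2), each from 2 libraries per treatment. For Cdkn1a these changes were 1.43, 1.20, 1.27 and 1.49, and for Mdm2 0.91, 0.80, 0.57 and 0.64, so all 4 populations moved the same way. The Tnfrsf10b changes were 0.33, 0.85, 0.66 and 0.97. Leaving out a whole guide population leaves 2 libraries a group, and this ended 6 h calls of Fas, Ccng1, Plk3, Tnfrsf10b, Fdxr and Ei24 in control cells, 6 h calls of Fas and Plk3 in Ado KO cells, and 1 h calls of Gadd45b in both genotypes and of Cdkn1a in Ado KO cells. The 6 h calls of Btg2, Gadd45b, Cdkn1a, Mdm2, Plk2 and Phlda3 held in both genotypes without any 1 population.

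Other genes of the pathway were counted by lists chosen from textbook knowledge. Of 27 measured p53 regulators, 2 were called higher and 0 lower at 6 h in control cells, near or below the shares of all genes. They were Set (0.26 ± 0.08), a histone chaperone, and Atr (0.63 ± 0.21), a DNA damage kinase (limma adjusted p = 0.0184 and 0.0353). For Ado KO cells 0 regulators were called in limma, beside 4.42% of all genes higher and 2.02% lower. At an unadjusted p under 0.05, 1 regulator was higher and 3 lower, beside 8.22% and 9.62% of all genes. Of 40 further p53 targets, 5 were called higher and 4 lower at 6 h in control cells, beside 7.74% and 10.3% of all genes, and 6 higher and 2 lower in Ado KO cells, beside 4.42% and 2.02%. The median change of that list was −0.03 in control and 0.01 in Ado KO cells. Between genotypes 1 gene of that list was called higher in Ado KO untreated, 1 at 1 h and 2 at 6 h, with 0 lower in limma, beside 0.249%, 1.06% and 1.02% of all genes in either direction. Irf9, a subunit of the interferon-activated factor ISGF3, was higher in Ado KO cells by 0.45 ± 0.09 at 1 h and 0.38 ± 0.09 at 6 h (limma adjusted p = 0.0101 and 0.0305), and is named after its values were seen. Lif, a cytokine, rose by 4.78 ± 0.62 and 4.86 ± 0.62, and its size depends on the lowest value, at which some untreated libraries stood. Hbegf, an EGF receptor ligand, rose by 2.00 ± 0.12 and 1.36 ± 0.12. Ddit4, which restrains mTORC1, fell by 1.79 ± 0.19 and by 1.95 ± 0.19 (limma adjusted p for these 3 genes at most 6.79e-07).

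Cell-cycle genes that p21 represses through the DREAM complex were also counted. Of 41, 2 were called higher and 9 lower at 6 h in control cells, where 7.74% and 10.3% of all genes were. For Ado KO cells the limma counts were 0 higher and 5 lower, beside 4.42% and 2.02%. The median change was −0.08 in both genotypes, close to −0.09 and −0.05 over all genes. Tk1, thymidine kinase, fell by 0.44 ± 0.08 in control and by 0.37 ± 0.08 in Ado KO cells. Ccnb2, cyclin B2, fell by 0.45 ± 0.09 and by 0.32 ± 0.09, and Plk1, a mitotic kinase, by 0.27 ± 0.07 and by 0.26 ± 0.07 (limma adjusted p for these 3 genes at most 0.0321). Against the list, Top2a, topoisomerase II alpha, rose in control cells by 0.52 ± 0.12 at 1 h and 0.50 ± 0.12 at 6 h (limma adjusted p = 0.0339 and 0.00309).

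**Figure D4:**
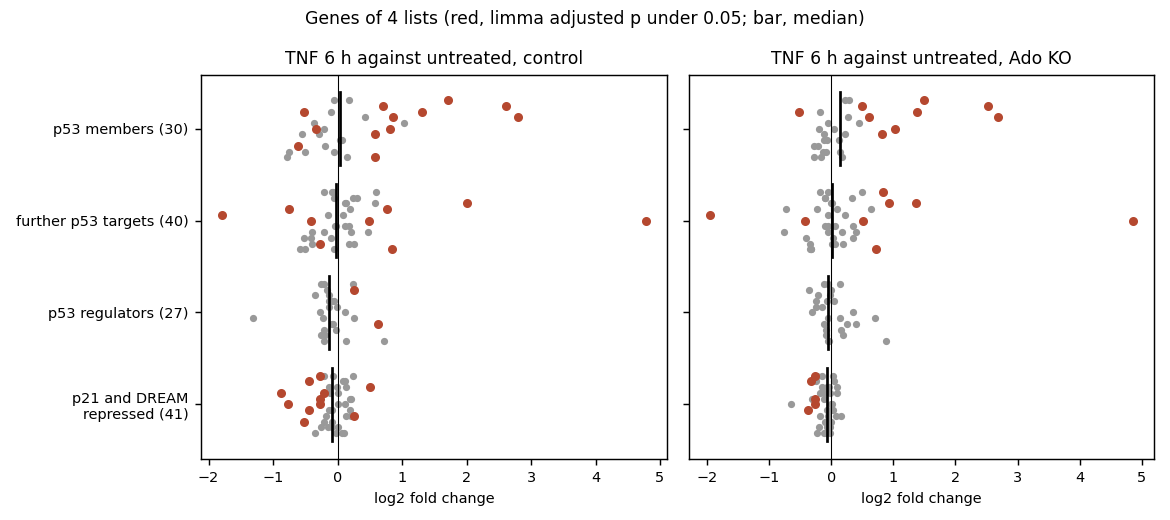
Log2 change after 6 h of TNF (x axis) of each tested gene (points, red where called) in 4 rows: the p53 target members, further p53 targets, p53 regulators and p21-DREAM genes, in control (left) and Ado KO cells (right), with bars at the medians. The medians of the 4 lists lie between −0.13 and 0.13, and the members reach 2.80 (Btg2) in control cells.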

How the data were processed

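Total RNA from MC38 cells was read by 3' tag sequencing (QuantSeq) in 24 libraries. Per the submitters' processing notes, the tools were limma, HISAT2, cutadapt 1.7, Subread with featureCounts, and FastQC, with the builds mm10 and GRCm38; other versions are not given in the sources used here. The deposited table holds log2 CPM values per gene, normalised by the authors. Unit and quantile normalisation were inferred from the values: unlogged libraries summed to 998900 to 999014, and all had the same lowest (−3.35) and highest (17.0) value. If 0.5 was added to each count, the lowest value places the typical depth near 5100000 tags, and 617 to 1013 genes per library stood there. The depth of each library is unknown, so no counting interval is given.

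Genes with 0 or more in at least 4 libraries were kept. Limma 3.58.1 (R 4.3.3, statmod 1.5.0) fitted 6 group means with the 4 guide populations as a random block (estimated correlation 0.0485) and a variance trend, with two-sided tests adjusted by Benjamini-Hochberg over 13272 genes. Values with ± are limma log2 changes with their SE. Guides of one genotype were compared on means of population and treatment. For control guide 2 at 1 h, titles and column names give opposite replicate numbers; columns were joined through the descriptions and numbers follow the titles. Replicates with the same number were not treated as pairs, because differences between replicates correlated across treatments at only −0.158 to 0.0543. Every kept member is named, with values per library for those called against untreated cells; in each other list up to 4 genes with the smallest adjusted p at 6 h in control cells, and up to 4 called at 1 h, are named. One gene that this rule picks is not reported here. Sesn1 and Gadd45a are given by library because their groups decide a call, and were chosen after their values were seen. Members and lists were chosen with earlier results of these data known. Alternatives covered the filter, a pseudocount of 1, the guide block, a replicate block, the variance trend, other scaling, and leaving out each library or guide population. Promoter windows came from RefSeq, gene names and biotypes from the GENCODE M21 annotation of GRCm38, and figures from matplotlib 3.10.9 in Python 3.11.15.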

Additional observations from a re-analysis of the deposited data

Results flagged for a closer look

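Of 180 group values of the members (30 genes in 6 groups of 4 libraries), 9 held 1 library far from the other 3, and 9 is the number that chance gives at 5%. None of these libraries was left out. Within Ado KO cells at 1 h, Cdkn1a was 4.7063 in library 2-2 (4.39 to 4.44 in the others), Gtse1 3.085 in library 1-2 (4.40 to 4.56), Zmat3 3.1857 in library 1-1 (3.60 to 3.65) and Ei24 6.9985 in library 2-1 (6.71 to 6.75). In control cells at 1 h, Ccng2 was 1.5975 in library 1-2 (2.66 to 2.73 in the others), Gadd45a 0.1527 in library 2-2 (1.60 to 1.88), Ei24 6.4393 in library 1-2 (6.70 to 6.71) and Polk 2.5933 in library 2-1 (2.07 to 2.15). In untreated control cells Pidd1 was −0.0127 in library 2-1 (0.92 to 1.03 in the others).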

How the results depend on the processing

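Of 40 calls on members over all comparisons, 16 held under every alternative, 32 held when any 1 library was left out, and 0 changed sign. Low members (Fas, Perp, Ddb2) are limited by depth, since 0 on the log2 scale is about 5.10 tags. The cause of the changes below was not tested. Settings without a guide population also have fewer libraries.

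With guide populations as fixed terms, 5 members were called at 1 h in control cells (2 in the reported fit) and 1 member between genotypes at 6 h (0 in the reported fit). Without control guide 1, 1 member was called at 1 h in control cells, and without Ado KO guide 2 there was 1 in Ado KO cells (3 with all). From 1 h to 6 h, 3 members were called without control guide 1 and 2 without control guide 2 (6 with both), and 0 in Ado KO cells without Ado KO guide 1 (6 with both). Without control guide 2, 3 members differed between genotypes at 1 h and 1 at 6 h. Leaving out 1 library gave 0 to 1 members between genotypes at 1 h and 1 to 2 between control guides. The replicate block gave 3 members at 1 h in each genotype, 12 at 6 h in control cells with 9 in Ado KO cells, and 0 between genotypes at any time. It added Cdkn1a at 1 h in control cells and changed no other member call.

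Counts over all genes moved more. At 1 h in control cells 52 genes were called, against 216 with fixed terms, 22 and 260 without control guide 1 and 2, and 31 to 76 without 1 library. In Ado KO cells 34 were called at 1 h, against 57 with fixed terms and 15 without Ado KO guide 2. At 6 h in control cells 2392 were called, against 1411 among protein-coding genes normalised again (690 higher and 721 lower, beside 1027 and 1365), 684 and 1575 without control guide 1 and 2, and 1581 to 2153 without 1 library. In Ado KO cells 855 were called at 6 h, against 369 and 417 without Ado KO guide 1 and 2. From 1 h to 6 h, 1019 were called in control cells, against 538 among protein-coding genes and 483 and 655 without control guide 1 and 2. In Ado KO cells 1031 were called, against 260 and 444 without Ado KO guide 1 and 2 and 679 to 1296 without 1 library.

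Between untreated genotypes 33 genes were called, against 132 with fixed terms, 6 without the variance trend, 139 without control guide 2, 3 without Ado KO guide 2 and 11 to 35 without 1 library. At 1 h 141 were called, against 609 with fixed terms, 43 without the trend, 90 among protein-coding genes, 956 without control guide 2, 23 and 71 without Ado KO guide 1 and 2, and 30 to 434 without 1 library. At 6 h 135 were called, against 324, 58 and 38 under the first 3 of these settings, 322 without control guide 2, 37 and 31 without Ado KO guide 1 and 2, and 58 to 139 without 1 library. The genotype difference in the 1 h response gave 0 genes, against 7 without control guide 2 and 0 to 38 without 1 library. For the 6 h response it gave 46, against 70 with fixed terms, 30 without the trend, 0 among protein-coding genes, 7 without control guide 1, 1 without Ado KO guide 2 and 27 to 52 without 1 library. Between control guides 612 were called, against 295 without the trend and 372 to 1378 without 1 library. Between Ado guides 21 were called, against 33 with the replicate block, 0 without the trend, 2 among protein-coding genes, 7 with libraries centred on the median and 0 to 72 without 1 library.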
